A study of Mus musculus with 2 samples.

Results

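Transcription factor genes that pattern the embryonic forebrain were followed in sorted cells of the adult mouse brain, with cells of the lung as contrast. They are Pax6, Emx1, Emx2, Lhx2, Nr2e1, Gsx2, Nkx2-1, Six3 and Otx2, listed by name and not by their level, and they are 9 of the 25814 genes with counts in the series. The cells carried a GFP reporter under Nestin regulatory elements (Nes-GFP) and were sorted as Nes-GFP+ from the brain or the lung of mice aged about 6 weeks. Nestin is an intermediate filament protein of neural stem cells (NSCs) and of several other cell types, so the reporter marks more than NSCs. The strain on the labels was C57BL/6, whereas the methods of the study list further stocks. The cells of each tissue made up 1 single-cell RNA library, and how many mice went into it is not given in the sources used here. Each group is therefore 1 library, every difference below compares cells within these libraries, and none has a replicate check.

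In the embryo these genes divide the anterior neural tube into domains. Pax6, Emx1, Emx2 and Lhx2 act in the pallium, the dorsal telencephalon that forms cortex and hippocampus. Gsx2 acts in the lateral ganglionic eminence and Nkx2-1 in the medial ganglionic eminence and the hypothalamus, both ventral. Six3 acts in the anterior neural plate and later in ventral and hypothalamic territory, Otx2 sets up the whole forebrain and midbrain and is kept in choroid plexus and in parts of the diencephalon, and Nr2e1 (Tlx) maintains NSCs along the ventricle. In the adult, NSCs of the ventricular wall are known to keep part of this regional code according to their position, and their neuroblasts (NB) go to the olfactory bulb. The paper also names the dentate gyrus of the hippocampus as a main region of adult NSCs. Its methods describe mincing of whole brain tissue, so the cells need not come from the ventricular wall.

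The filtered brain library held 4151 cells with a median of 4209 unique molecular identifiers (UMIs, 1 per captured transcript) and the lung library 5608 cells with a median of 5585, and 11 of these barcodes occurred in both libraries. Brain cells fell into 19 clusters, which were named "-like" from marker lists that held none of the 9 genes. Clustering also left the 9 genes and the other patterning genes out. The classes used here were quiescent NSC-like (qNSC-like, 291 cells, led by Thbs4 and Gfap), astrocyte-like (557 cells), activated NSC-like (aNSC-like, 269 cells), cycling (368 cells), NB-like (1413 cells), OPC-like (oligodendrocyte progenitor, 121 cells) and ependymal-like (125 cells). The aNSC-like cluster was led by Mcm2, Mcm3 and Hells beside Gadd45g, and its marker score of 2.43 was close to its NB score of 2.38. The reporter sort also held endothelial-like (328), mural-like (169), mature oligodendrocyte-like (162), fibroblast-like (66) and microglia-like (34) cells, and 248 cells stayed unnamed. Median UMIs per cell were 3819 in qNSC-like, 3617 in astrocyte-like, 7451 in aNSC-like, 8401 in cycling, 4160 in NB-like, 3101 in OPC-like and 6053 in ependymal-like cells. Levels are given in CPM, the UMIs of a gene summed over a class per 1000000 UMIs of that class. Intervals are 95% intervals that cover counting error only.

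Upstream sequence is shown for Otx2, the member that was higher in ependymal-like than in qNSC-like cells, and for Lhx2, as 1 of the 6 that were lower there. RefSeq (GRCm38.p6) places Lhx2 on chr2 from 38339271 to 38369737 on the plus strand and Otx2 on chr14 from 48656781 to 48667644 on the minus strand. Of 14 stretches of 250 bases before a RefSeq start of the 9 genes, 5 held no exon of the GENCODE M21 annotation, and among these the share of G and C was highest for Lhx2 (72.8%) and lowest for Otx2 (42%). Capitals mark TAATTA, the core that many homeodomain proteins bind, which reads the same on both strands. It was in 2 of the 14 stretches, both before Otx2, and in 4.84% of all 32851 stretches of that length, exons not considered. This describes letters only and says nothing of binding. The other members lie on chr6 (Emx1, 85187931 to 85204463), chr10 (Nr2e1, 42561963 to 42583590), chr5 (Gsx2, 75075601 to 75077893) and chr12 (Nkx2-1, 56531935 to 56536908), with Pax6, Emx2 and Six3 given below. The first sequence is chr2:38339031-38339280 and the second chr14:48667645-48667894, each read 5′ to 3′ on the strand of its gene. The first ends with 10 bases that RefSeq counts into the Lhx2 gene, since it precedes a later transcript start.
Lhx2: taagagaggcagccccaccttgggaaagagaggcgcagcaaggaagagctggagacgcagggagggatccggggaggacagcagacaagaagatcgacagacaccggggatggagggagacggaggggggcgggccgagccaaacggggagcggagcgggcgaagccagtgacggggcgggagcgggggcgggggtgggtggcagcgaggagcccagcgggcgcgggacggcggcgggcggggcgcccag
Otx2: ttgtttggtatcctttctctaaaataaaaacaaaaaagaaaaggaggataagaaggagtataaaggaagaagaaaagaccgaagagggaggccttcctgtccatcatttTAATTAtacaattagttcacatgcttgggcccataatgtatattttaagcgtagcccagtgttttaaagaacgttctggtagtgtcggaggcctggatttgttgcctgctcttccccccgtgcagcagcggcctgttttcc

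All 9 genes were found in the brain library and 6 of them had no UMI in the lung. Pax6 had 2939 UMIs over 1267 cells of the brain library and 14 UMIs over 13 cells of the lung library, a CPM ratio of 342 (204 to 626). Lhx2 had 2011 UMIs in brain and 3 in lung, a ratio of 1092 (373 to 5300). Emx1 (183 brain UMIs), Emx2 (519), Nr2e1 (308), Gsx2 (237), Six3 (490) and Otx2 (128) were in 0 of 5608 lung cells, so up to 0.0535% of such cells could hold a captured UMI, a limit on cells with a UMI and not on cells that express the gene. Against a floor of 3 counts over the lung library they were at least 99.4-fold (Emx1), 282-fold (Emx2), 167-fold (Nr2e1), 129-fold (Gsx2), 266-fold (Six3) and 69.5-fold (Otx2) higher in brain. Nkx2-1, which is also a regulator of lung epithelium, had 61 UMIs over 33 brain cells against 17 UMIs over 9 lung cells, a ratio of 5.85 (3.37 to 10.7). Of the 17 lung UMIs, 15 lay in 1 shallow cluster of 304 cells with a median of 1196.5 UMIs that was led by the surfactant gene Sftpc. Among genes with at least 20 UMIs in both libraries together, 30.1% were at least 2-fold higher in brain and 15.8% at least 2-fold lower, so 9 of 9 members higher stands against 30.1% of genes. The lung cluster with Schwann or neural markers held 32 cells and 1 UMI of the members, of Pax6.

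The plot of levels by class shows that the 9 genes differed between classes in different ways. These classes are clusters of cells from the same library and not stages followed over time. These 3′ counts are not scaled to transcript length, so levels are compared between classes and not between genes.

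**Figure D1:**
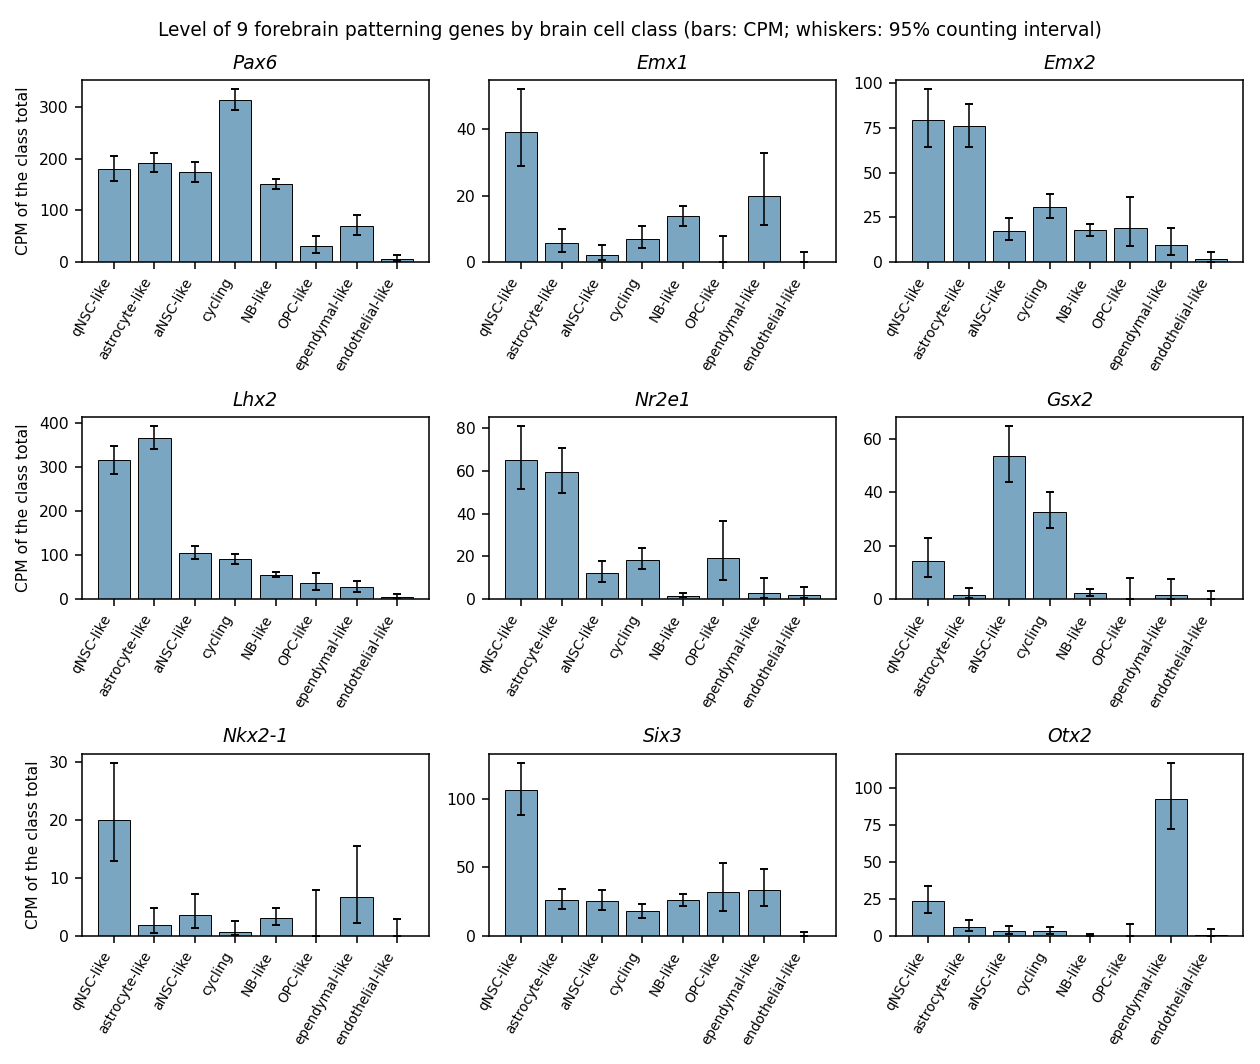
CPM of each of the 9 genes (y axis, from 0, its own scale in each panel) in 8 brain classes (x axis), with bars for the CPM of the class sum and whiskers for the 95% counting interval. Lhx2, Emx2 and Nr2e1 were high in qNSC-like and astrocyte-like cells, Gsx2 in aNSC-like and cycling cells, Pax6 in cycling cells and Otx2 in ependymal-like cells.

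Endothelial-like brain cells (328 cells, median 3800.5 UMIs) served as the class that should lack these genes. There, Pax6 was found in 2.44% of cells, Lhx2 in 1.83%, Emx2 in 0.610% and Nr2e1 and Otx2 in 0.305% each. Emx1, Gsx2, Nkx2-1 and Six3 were in 0 of 328 cells (upper limit 0.915%). After each cell was thinned to 1000 UMIs, the endothelial-like shares were 0.631% for Pax6, 1.26% for Lhx2 and 0.315% for Nr2e1, with no UMI left of the other members.

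Pax6 was the member that differed least between qNSC-like and aNSC-like cells. Its CPM was 180 in qNSC-like (216 UMIs), 191 in astrocyte-like (406), 173 in aNSC-like (345), 314 in cycling (902), 151 in NB-like (925), 69.0 in ependymal-like (52) and 29.9 in OPC-like cells (14). The qNSC-like, astrocyte-like and aNSC-like levels had overlapping intervals, and the cycling level stood above all of them. A UMI was found in 37.1% of qNSC-like, 47.6% of aNSC-like, 64.1% of cycling and 31.7% of NB-like cells. The thinned shares were 13.5%, 13.8%, 22.7% and 12.1%, so cycling cells also stood highest of these classes at equal depth. In the cycling class the 2 clusters gave 352 CPM (cluster 6, led by histone genes) and 238 CPM (cluster 9, led by Cdc20 and Cenpa). A cluster of 144 shallow cells (median 879 UMIs) that stayed unnamed had 277 CPM (40 UMIs).

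Lhx2, a LIM homeodomain factor of cortex and hippocampus, was highest in qNSC-like and astrocyte-like cells when classes were taken whole, although 1 NB-like cluster of 72 cells, described below, had 645 CPM. Its CPM was 315 in qNSC-like cells (378 UMIs) and 367 in astrocyte-like cells (779), against 104 in aNSC-like (208), 90.1 in cycling (259), 54.4 in NB-like (333), 36.3 in OPC-like (17) and 26.5 in ependymal-like cells (20). The thinned share of cells with a UMI was 29.1% in qNSC-like, 31.5% in astrocyte-like, 9.33% in aNSC-like and 9.67% in cycling cells. Emx2, a homeodomain factor that sets cortical area identity, had 79.3 CPM in qNSC-like and 75.9 CPM in astrocyte-like cells, and between 9.28 CPM (ependymal-like) and 31.0 CPM (cycling) in the aNSC-like, cycling, NB-like, OPC-like and ependymal-like classes. Nr2e1, the orphan nuclear receptor of NSCs, had 65.1 CPM in qNSC-like and 59.4 CPM in astrocyte-like cells, 12.1 CPM in aNSC-like, 18.4 CPM in cycling, 19.2 CPM in OPC-like, 2.65 CPM in ependymal-like and 1.47 CPM in NB-like cells. For each of these 3 genes the qNSC-like and astrocyte-like levels differed by at most a ratio of 1.16, that of Lhx2.

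The other members, leaving Pax6 aside, differed between those 2 classes. Six3 had 106 CPM in qNSC-like cells (127 UMIs) and between 17.7 CPM (cycling) and 33.2 CPM (ependymal-like) over astrocyte-like cells and those same 5 classes. Nkx2-1 had 20.03 CPM in qNSC-like cells (24 UMIs in 13 cells) and 1.89 CPM in astrocyte-like cells (4 UMIs), with 6.63 CPM in ependymal-like, 3.51 CPM in aNSC-like, 3.11 CPM in NB-like, 0.696 CPM in cycling and 0 UMIs in OPC-like cells. Emx1, a pallial homeodomain factor, had 39.2 CPM in qNSC-like (47 UMIs), 19.9 CPM in ependymal-like (15), 13.7 CPM in NB-like (84), 6.96 CPM in cycling (20), 5.66 CPM in astrocyte-like (12) and 2.01 CPM in aNSC-like cells (4). From qNSC-like to astrocyte-like cells, 5 of the 9 members were at least 2-fold lower: Emx1 (ratio 0.144, 0.0697 to 0.276), Gsx2 (0.0997, 0.0187 to 0.345), Nkx2-1 (0.0942, 0.0238 to 0.274), Six3 (0.245, 0.175 to 0.338) and Otx2 (0.262, 0.125 to 0.523). None was at least 2-fold higher. Over all 10538 genes with at least 20 UMIs in the pair, 14.1% were at least 2-fold lower and 7.26% at least 2-fold higher. Without cluster 7, whose cells were shallow (median 1631 UMIs), the Six3 ratio was 0.228 and that of Nkx2-1 0.0560. The count of 5 fell to 2 when single cells were gated on marker UMIs, where the Six3 ratio was 0.908, and to 2 at a minimum of 50 UMIs per gene. Of 9 subpallial genes tested, 7 were lower too (Dlx1, Dlx2, Dlx5, Dlx6, Sp9, Nkx6-2 and Vax1) and Olig2 was higher. NB markers were lower as well. They summed to 1877 CPM and 853 CPM in qNSC-like cells with and without Pax6. In astrocyte-like cells the sums were 354 CPM and 195 CPM, and their part was not tested.

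As a stand-in for activation, aNSC-like cells were compared with qNSC-like cells. A difference in regional make-up between these classes was not tested. Gsx2 was at least 2-fold higher in aNSC-like cells and 7 members at least 2-fold lower, while Pax6 differed little. Gsx2, the homeodomain factor of the lateral ganglionic eminence, had 14.2 CPM in qNSC-like (17 UMIs in 10 cells), 53.7 CPM in aNSC-like (107 UMIs in 67 cells), 32.7 CPM in cycling (94 UMIs in 54 cells), 2.29 CPM in NB-like (14), 1.41 CPM in astrocyte-like (3) and 1.33 CPM in ependymal-like cells (1), with 0 UMIs in OPC-like cells. It was thus found mainly in aNSC-like and cycling cells, with a ratio of 3.79 (2.26 to 6.74) from qNSC-like to aNSC-like and of 0.0426 (0.0225 to 0.0746) from aNSC-like to NB-like cells. Its thinned share was 1.73% in qNSC-like, 8.58% in aNSC-like, 2.21% in cycling and 0.495% in NB-like cells.

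**Figure D2:**
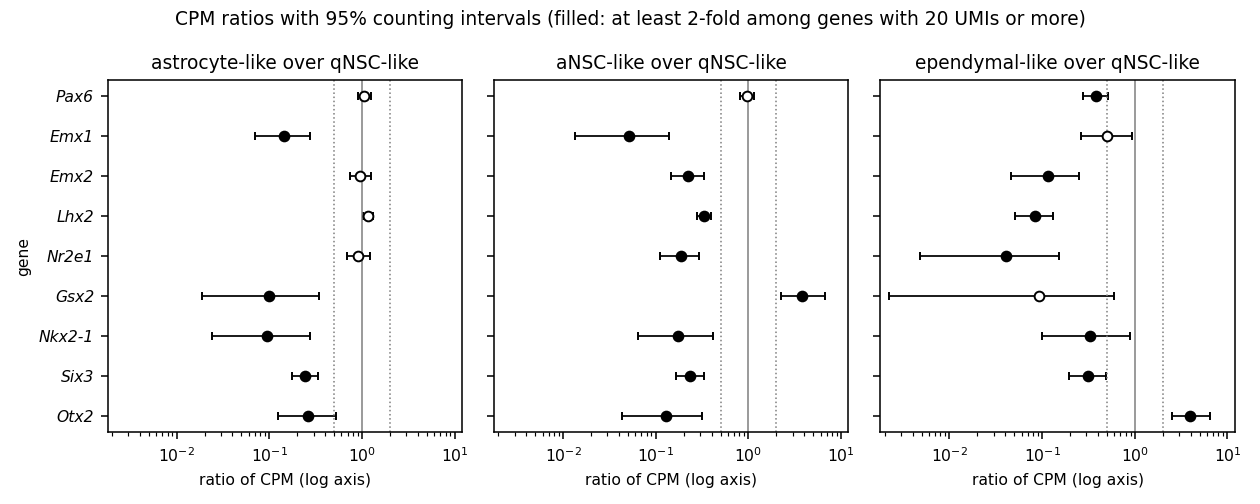
Ratio of CPM (x axis, log scale) of each of the 9 genes (y axis) for astrocyte-like, aNSC-like and ependymal-like over qNSC-like cells, with 95% counting intervals, filled points for differences of at least 2-fold among genes with at least 20 UMIs, a solid line at 1 and dotted lines at 2-fold. Gsx2 stands at 3.79 in the middle panel and Otx2 at 3.97 in the right panel, the points past the upper dotted line.

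The members that were lower in aNSC-like cells were Emx1 (ratio 0.0512, 0.0134 to 0.140), Otx2 (0.129, 0.0437 to 0.317), Nkx2-1 (0.176, 0.0639 to 0.420), Nr2e1 (0.185, 0.112 to 0.296), Emx2 (0.222, 0.146 to 0.330), Six3 (0.237, 0.167 to 0.331) and Lhx2 (0.331, 0.278 to 0.393). The Pax6 ratio was 0.961 (0.808 to 1.14). Of 10566 genes tested, 21.2% were at least 2-fold lower and 19.1% at least 2-fold higher, and the median log2 ratio was 0.12 over all of them and -2.17 over the 9 members. The other patterning genes differed in both directions. Of 11 subpallial genes tested, 8 were higher in aNSC-like cells, among them Dlx1 (84.3 CPM to 1044 CPM), Dlx2 (45.9 CPM to 534 CPM) and Gsx1 (2.50 CPM to 35.7 CPM), which act with Gsx2 in the making of inhibitory neurons, and Nkx6-2 was lower. Of 4 pallial genes tested, Eomes was higher and Gli3 and Wnt8b were lower, as were both antisense transcripts tested, Emx2os and Six3os1. When single cells were gated on marker UMIs instead, 36 cells were aNSC-like, 3 members passed 2-fold, and Six3 (1.19) and Nkx2-1 (3.89) had ratios above 1.

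From aNSC-like to cycling cells, 1 of 7 members tested was at least 2-fold higher, Emx1 (ratio 3.46, 1.16 to 13.9, from 4 and 20 UMIs), and none lower, and 0 were with called doublets removed. The background was 6.04% of genes higher and 4.12% lower. Pax6 (1.81, 1.598 to 2.06) and Emx2 (1.76, 1.18 to 2.68) lay above 1 and Gsx2 (0.609, 0.456 to 0.811) below it without reaching 2-fold. From aNSC-like to NB-like cells, Emx1 was higher (6.84, 2.57 to 25.7) and Nr2e1 (0.122, 0.0499 to 0.272) and Gsx2 lower, 3 of 8 tested, where 10.7% of genes were higher and 10.7% lower. The Emx1 difference came from 1 NB-like cluster, described next: without cluster 15 its ratio was 0.0877 (0.00178 to 0.886). Lhx2 went from 0.521 to 0.0826, Emx2 from 1.01 to 0.551 and Nr2e1 from 0.122 to 0.0438 when that cluster was left out, while Pax6 was at 0.873 with it and 0.895 without.

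Cluster 15 stood apart among the NB-like cells in its pallial members. It held 72 cells (median 6066 UMIs) and was led by Neurod1, Eomes, Pcp4, Calb2 and Tbr1. Of these, Neurod1, Eomes and Tbr1 are genes of glutamatergic lineages, and the glutamate transporter gene Slc17a6 was also among its 10 leading genes. Emx1 had 83 of the 84 NB-like UMIs there (189 CPM), against 0 UMIs in cluster 0 (723 cells) and 1 UMI in cluster 1 (618 cells). Lhx2 had 645 CPM in cluster 15 (284 UMIs) and 8.63 CPM in clusters 0 and 1 together (49 UMIs), a ratio of 74.8 (55.1 to 103). Emx2 had 123 CPM (54 UMIs) and 9.69 CPM (55 UMIs), a ratio of 12.7 (8.54 to 18.8). Pax6 had 102 CPM in cluster 15, 187 CPM in cluster 0 and 106 CPM in cluster 1, a ratio to clusters 0 and 1 together of 0.660 (0.478 to 0.890). Six3, Gsx2, Nkx2-1 and Otx2 had 0 UMIs in cluster 15, where Six3 had 158 UMIs in clusters 0 and 1 and was at least 4.08-fold higher there.

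**Figure D3:**
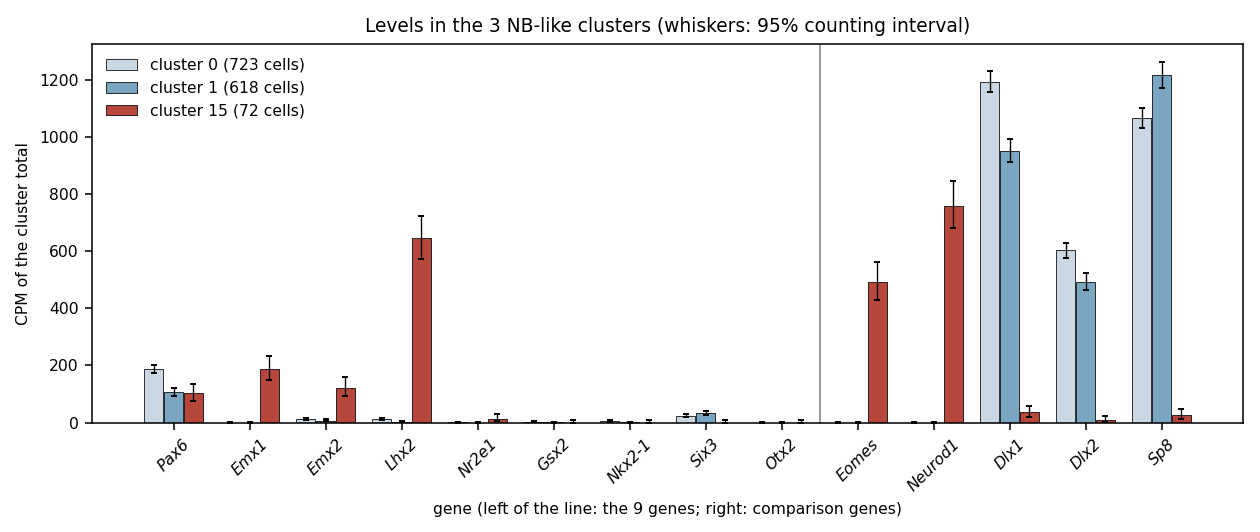
CPM (y axis, from 0) of the 9 genes and of 5 comparison genes (x axis) in the NB-like clusters 0, 1 and 15, with whiskers for the 95% counting interval. Emx1, Emx2 and Lhx2 stand high in cluster 15 with Eomes and Neurod1, and Dlx1, Dlx2 and Sp8 stand high in clusters 0 and 1.

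The comparison genes had the opposite pattern for ventral factors. Dlx1 had 36.4 CPM in cluster 15 and 1098 CPM in clusters 0 and 1, Dlx2 9.09 CPM and 560 CPM, and Gad2, an enzyme of inhibitory neurons, 38.6 CPM and 562 CPM. These genes were chosen for the comparison after the cluster had been seen, and the values describe it.

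Otx2 had its highest level in ependymal-like cells. It had 92.8 CPM there (70 UMIs in 38 of 125 cells), 23.4 CPM in qNSC-like (28), 6.13 CPM in astrocyte-like (13), 3.13 CPM in cycling (9), 3.01 CPM in aNSC-like (6), 0.163 CPM in NB-like (1) and 0 UMIs in OPC-like cells. The ratio of ependymal-like to qNSC-like cells was 3.97 (2.53 to 6.40). A UMI was found in 30.4% of ependymal-like cells and 6.87% of qNSC-like cells, and in 10.6% and 1.38% after thinning. Of the 8 members tested in this pair, 6 were at least 2-fold lower, in the order Nr2e1 (0.0408, from 2 UMIs), Lhx2 (0.0841, 0.0508 to 0.132), Emx2 (0.117, 0.0458 to 0.251), Six3 (0.313, 0.195 to 0.483), Nkx2-1 (0.331, 0.0987 to 0.885) and Pax6 (0.383, 0.277 to 0.520). Emx1 was at 0.507 (0.263 to 0.923). When single cells were gated on marker UMIs, the ratios of Six3 (1.18) and Nkx2-1 (4.17) lay above 1. The background was 17.2% of genes higher and 19.5% lower. Of the 5 caudal genes tested, 4 were higher in ependymal-like cells (Pax3, Irx3, Irx5 and Barhl2), which mark diencephalon and brain regions behind it. Choroid plexus markers moved with Otx2: their summed level was 656 CPM in ependymal-like cells with an Otx2 UMI (3 of 5 markers found) and 262 CPM in those without (4 of 5), with median depths of 8119 and 5506 UMIs. Folr1 was in 60.8% of ependymal-like cells, Ttr in 5.60% and Kl in 0 of 125, while Ttr had 0 UMIs in qNSC-like cells. Their part in the Otx2 level was not tested.

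OPC-like cells held less of the members than qNSC-like cells. Their Six3 level (32.1 CPM) was not below that of astrocyte-like cells (25.9 CPM), and their Nr2e1 level (19.2 CPM) not below that of aNSC-like cells (12.1 CPM). Emx1, Gsx2, Nkx2-1 and Otx2 had 0 UMIs in 121 cells (upper limit 2.48% each). Of the 8 members tested against qNSC-like cells all 8 were at least 2-fold lower, among them Lhx2 (0.115, 0.0664 to 0.187), Pax6 (0.166, 0.0893 to 0.285) and Six3 (0.303, 0.165 to 0.518), while 14.4% of genes were lower and 17.6% higher. Emx1 was at least 6.12-fold, Nkx2-1 at least 3.12-fold and Otx2 at least 3.64-fold lower against a floor of 3 counts over the class. With 14 Pax6, 17 Lhx2, 15 Six3, 9 Emx2 and 9 Nr2e1 UMIs in this class, small differences between them were not detectable at this depth.

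Which members were detected in the same cells was asked over the 2898 cells of the qNSC-like, astrocyte-like, aNSC-like, cycling and NB-like classes. The number of cells with a UMI of both genes was set beside the number given by the product of their shares, summed over depth quartiles within each class. Of 28 pairs among the 8 members found in at least 30 of these cells, 6 had at least 1.5 times the product and a product of at least 5. Gsx2 and Otx2 also passed 1.5 times, with 7 cells against 3.75, but their product was under 5. The number was 3 when at least 2 UMIs of each gene were asked and 2 after thinning to 2000 UMIs. With no test, this is a description. Of the 6, 2 involved Emx1 and 4 lay among Nr2e1, Gsx2, Six3 and Otx2.

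**Figure D4:**
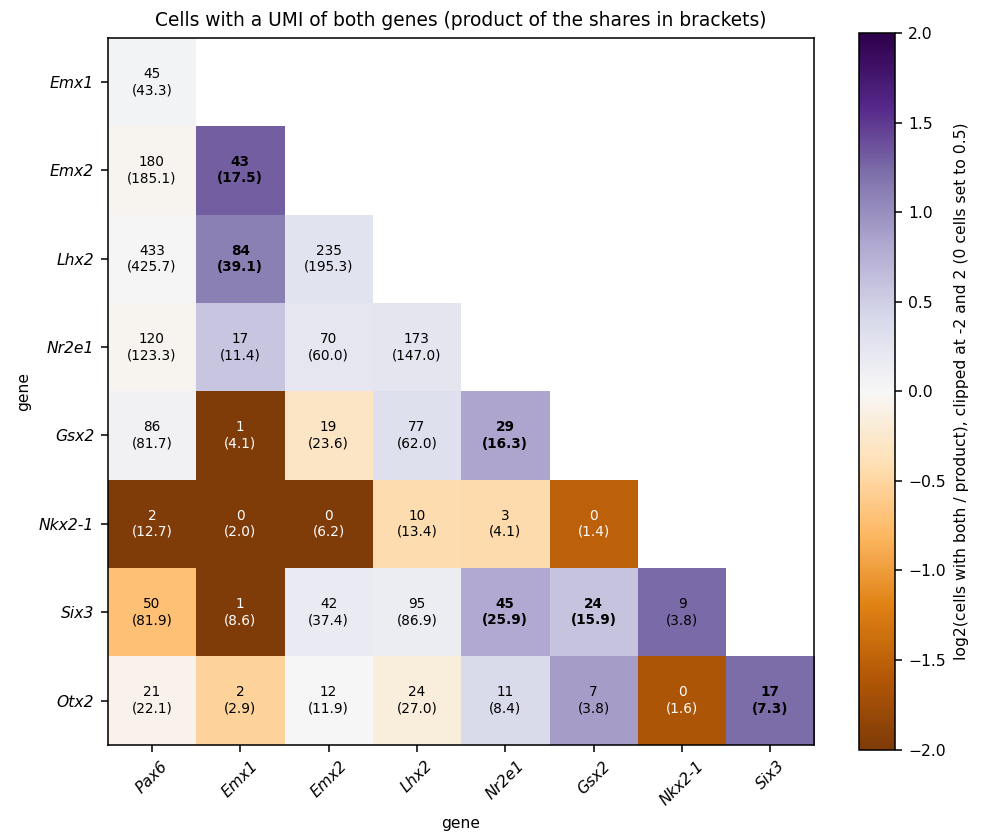
Number of cells with a UMI of both genes for each pair of the 9 genes, with the product of the shares in brackets, over 2898 cells of 5 brain classes. Colour gives the log2 of their ratio, purple for more cells than the product and orange for fewer, and the 6 pairs in bold reached 1.5 times a product of at least 5 with each gene in at least 30 cells. Gsx2 with Otx2 (7 against 3.75) and Nkx2-1 with Six3 (9 against 3.81) also reached 1.5 times and are not in bold, since their products were under 5.

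The pairs of pallial genes were Emx1 with Emx2 (43 cells against 17.5) and Emx1 with Lhx2 (84 cells against 39.1). Of the 97 cells with Emx1, 86.6% also had Lhx2, while 28.2% of the cells without Emx1 did. Of the 875 cells with Lhx2, 9.60% had Emx1. Both pairs drew on cluster 15. Without it they stood at 18 against 13.7 and 45 against 32.2, and with clusters in place of classes at 43 against 30.7 and 84 against 70.6, under 1.5 in each case. In the qNSC-like class alone the ratios were 1.21 and 1.22. In the cycling class, by contrast, all 10 cells with Emx1 also had Lhx2, where the product gave 3.71, and 5 of these 10 had Eomes, against 6 of the 358 cycling cells without Emx1.

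Nr2e1, Gsx2, Six3 and Otx2 gave the other 4 pairs. Nr2e1 and Six3 shared 45 cells against 25.9, Nr2e1 and Gsx2 29 against 16.3, Gsx2 and Six3 24 against 15.9, and Six3 and Otx2 17 against 7.29. With clusters as strata these ratios were 1.77, 1.78, 1.504 and 2.37. The ratio of Nr2e1 with Six3 was highest in aNSC-like and cycling cells, with 9 cells against 2.43 in aNSC-like and 12 against 3.93 in cycling cells, and 12 against 10.9 in qNSC-like cells. Nr2e1 with Gsx2 had 12 cells against 5.46 in aNSC-like and 15 against 7.86 in cycling cells. Cycling cells with Nr2e1 had a median of 9147 UMIs against 8278 in those without, and cycling cells with Gsx2 9399 against 8165.

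Several pairs shared fewer cells than the product. Pax6 and Six3 shared 50 cells against 81.9, a ratio of 0.610, and the ratio was below 1 in each of the 5 classes, from 0.345 in NB-like to 0.729 in cycling cells. It was also 0.383 in ependymal-like cells, which the pooled count did not use. Emx1 and Six3 shared 1 cell against 8.62, Emx1 and Gsx2 1 against 4.11, Pax6 and Nkx2-1 2 against 12.7, and Emx2 and Nkx2-1 0 against 6.15. Nkx2-1 was in 29 of these cells, too few for the rule, so its pairs were not among the 28. Emx2 and Six3 shared 42 cells against 37.4 and Lhx2 and Six3 95 against 86.9, so not every dorsal member was rare in cells with Six3.

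Six3 was unevenly spread among NB-like cells. Its 158 UMIs lay in 27 of 1413 cells, and 10 of those cells held 134 of them, with up to 28 in 1 cell. None of these 10 cells had a Pax6 UMI (upper limit 30%). Pax6 was in 3 of the 17 NB-like cells with 1 or 2 Six3 UMIs (17.6%) and in 445 of 1386 cells with none (32.1%), at median depths of 4152.5 UMIs for 3 or more Six3 UMIs, 4555 for 1 or 2 and 4159.5 for none. The share did not fall with the Six3 count in every class. Among astrocyte-like cells Pax6 was in 3 of 5 with 3 or more Six3 UMIs, 9 of 30 with 1 or 2 and 45.4% with none, and among cycling cells in 4 of 7, 10 of 21 and 65.3%.

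**Figure D5:**
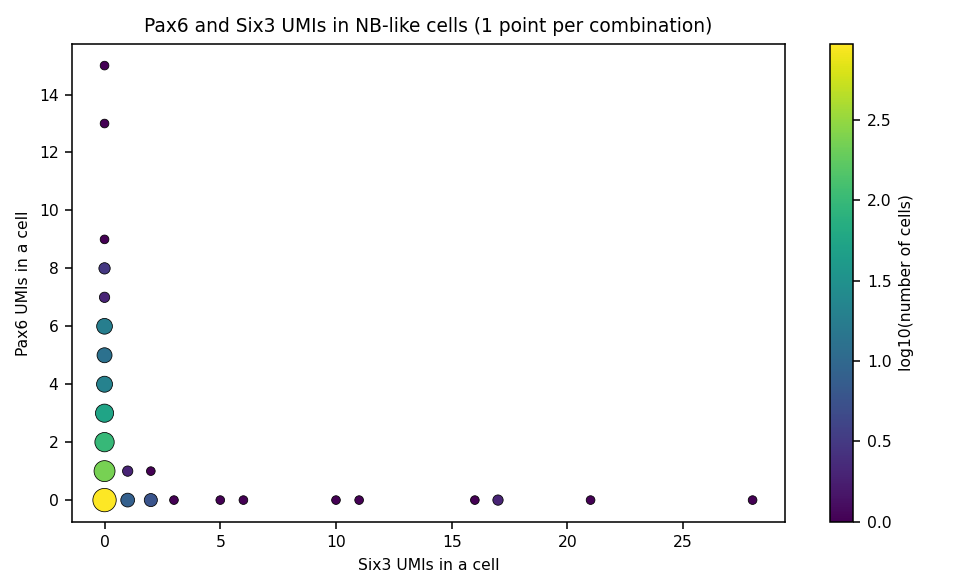
Six3 UMIs (x axis) and Pax6 UMIs (y axis) in NB-like cells, with 1 point per combination and size and colour for the number of cells. The 10 cells with 3 or more Six3 UMIs all lie at 0 Pax6 UMIs, and cells with more than 1 Pax6 UMI all lie at 0 Six3 UMIs.

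The NB-like cells with Six3 also held Tle4, a corepressor gene, in 11 of 27 (40.7%, against 8.37% of cells without Six3) and the homeobox gene Zfhx3 in 16 of 27 (59.3%, against 14.3%). Neuron markers summed to 251 CPM in these 27 cells and 163 CPM in the others. The qNSC markers summed to 41.9 CPM and 178 CPM and the NB markers to 14203 CPM and 14909 CPM, and their part was not tested. The genes named for the positive cells of a member, here and below, are among the 10 with the largest CPM ratio between a class's cells with and without the member, and this listing was added after its values were seen.

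Nkx2-1 was rare, and the cells that held it differed between classes. In the NB-like class it had 19 UMIs in 7 cells, up to 6 in 1 cell. Of these 7 cells, 5 held Lhx6, the factor that acts after Nkx2-1 in interneurons of the medial ganglionic eminence, and 5 held Npy, a neuropeptide of such interneurons. Lhx6 was in 0 of the 1406 NB-like cells without Nkx2-1 (upper limit 0.213%), and Npy was in 8 (0.569%). Median depths were 4328 and 4159.5 UMIs. Neuron markers summed to 360 CPM in the 7 cells and 163 CPM in the others and NB markers to 10554 CPM and 14918 CPM, and their part was not tested. In the qNSC-like class, Nkx2-1 was in 13 cells, of which 8 also had Six3, against 44 of 278 without it (15.8%). Of the same 13 cells, 7 had Col23a1 and 5 each had Gpr50 and Nkx2-4, against 7.55%, 3.96% and 1.80% of the others. Gpr50 is known from tanycytes, the glia that line the floor of the hypothalamic ventricle, and Nkx2-4 from hypothalamus. Ependymal markers moved with it: their summed level was 508 CPM in these 13 cells (6 of 8 markers found) and 107 CPM in the rest of the class (8 of 8), while it was 11528 CPM in ependymal-like cells without Otx2. The 13 cells were also deeper (median 5459 against 3686 UMIs). The part of either was not tested.

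Six3 was also uneven among qNSC-like cells. It was in 52 of 291 cells, 14 of which held 78 of the 127 UMIs. Slit2, a secreted guidance cue, was in 26.9% of the 52 cells and in 5.44% of the others, and the Wnt receptor gene Fzd5 in 36.5% and 10.9%, at median depths of 5068 and 3528 UMIs. The ependymal markers summed to 335 CPM in cells with Six3 and 75.6 CPM in cells without. A gene of the caudal list was in 3.85% of the cells with Six3 and 15.1% of the others. That list of 21 genes holds Otx1, its gene with the most UMIs in the brain library (267 UMIs in 236 cells). Otx1 was also among the genes closest to Lhx2 across brain clusters (r = 0.906), and its part in these shares was not tested. Otx2-positive qNSC-like cells were the reverse for that list, with 8 of 20 (40%) against 11.1% of the others. These 20 cells were deeper (median 6202.5 against 3641 UMIs), and NB markers summed to 2507 CPM in them and 1142 CPM in the others. Choroid plexus markers summed to 119 CPM and 3.76 CPM. A UMI of such a marker was in only 3 of the 20 cells (15%) and in 1.48% of the others. The part of these was not tested. Among cycling cells with Pax6, Dmrta2, a pallial factor, was found in 76 of 236 (32.2%) and in 6 of 132 without Pax6 (4.55%), at median depths of 8925 and 7009 UMIs.

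The number of members per cell was highest in qNSC-like cells, with a mean of 1.90 against 1.61 in cycling and 1.603 in astrocyte-like cells. At least 3 of the 9 were found in 30.6% of qNSC-like, 21.9% of astrocyte-like, 19.0% of cycling, 16.4% of aNSC-like, 5.60% of ependymal-like, 2.55% of NB-like and 0.826% of OPC-like cells, although cycling and aNSC-like cells were deeper than qNSC-like cells. No member was found in 13.1% of qNSC-like, 14.7% of cycling, 17.6% of astrocyte-like and 58.8% of NB-like cells, and in 94.5% of endothelial-like cells. The most members in 1 cell was 6.

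Genes with a like course across the 19 brain clusters were sought by the correlation of log2(CPM + 10), a description over 19 points that share 1 library. Lhx2 and Emx2 were each other's closest gene (r = 0.944), with Fezf2, a forebrain zinc finger factor, next for both (0.915 and 0.912). Nr2e1 was closest to Dbx2 (0.940), a homeobox gene, and Hes5 (0.927), a Notch target, was among its 3 closest. Gsx2 was closest to Helt (0.918), a bHLH-type repressor of inhibitory lineages, and Helt was in 32.8% of aNSC-like cells with Gsx2 and 10.9% without, at median depths of 8473 and 6928 UMIs and summed NB marker levels of 5047 CPM and 7933 CPM, whose part was not tested. Pax6 was closest to Pou3f3 (0.932) and Msi1 (0.919), both genes of neural progenitors. Otx2 was closest to Vit (0.981) and Iqcg (0.971), and Iqcg is a gene of motile cilia. Emx1 was closest to Cntnap2 (0.880), Nkx2-1 to Mgarp (0.856) and Six3 to Zfp219 (0.847).

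Transcripts from the opposite strand bear on the counts of 3 members, since the strand setting of the counting is not given in the sources used here. Six3 (chr17, 85613608 to 85626191) overlaps Six3os1 by 4789 bases and Pax6 (chr2, 105668896 to 105698410) overlaps Pax6os1 by 1435 bases in RefSeq. Emx2 (chr19, 59458690 to 59465357) starts 54 bases from Emx2os in RefSeq and overlaps it by 264 bases in GENCODE M21. Emx2os had 162 UMIs, Six3os1 149 and Pax6os1 29 in the brain library. Six3 and Six3os1 shared 45 cells, 22.2% of the cells with Six3 and 47.4% of those with Six3os1, and Six3os1 was at least 2-fold lower in aNSC-like than in qNSC-like cells, as Six3 was. Emx2 and Emx2os shared 43 cells, 10.5% and 30.1% of each. Reads of overlapping genes cannot be told apart without strand.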

How the data were processed

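Cells were captured with a 10x Chromium 3′ v3 kit. The authors deposited 1 table of UMI counts per gene and cell barcode for each tissue. Per the submitters' processing notes, bcl2fastq 2.19.1.403, UMI-tools 1.0.0, STAR 2.7.1a, Subread and featureCounts 1.6.4 were used with mm10. The annotation version and strand setting are not given in the sources used here.

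There were 4640 barcodes and 26221173 UMIs for brain, and 5981 barcodes and 36816962 UMIs for lung. Kept cells had more than 200 genes, under 4000 genes and a mitochondrial share under 40%, which left 4151 in brain and 5608 in lung. Scrublet (scanpy 1.11.5, expected rate 0.06) called 44 brain and 74 lung doublets, 1.06% and 1.32%, which were kept. Cells were clustered in Seurat 5.3.0 (R 4.3.3) from 2000 variable genes less the members and other patterning genes, with 20 components and resolution 0.8. Clusters were named by the mean centred log2(CPM + 10) of marker lists, with a score of at least 1, at least 3 markers each in at least 20% of cells, and a lead of at least 0.5 or, within 0.5, the most markers among the 10 leading genes. These thresholds were set after the clusters were seen.

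UMI counts were summed by class. Ratios have exact conditional binomial 95% intervals and shares exact Clopper-Pearson intervals. The upper limits printed for shares at 0 follow another rule, 3 over the number of cells. This lies somewhat below the exact limit, as with 2.48% against 3.00% for 0 of 121 cells. A group at 0 was set to a floor of 3 counts over the group. Each group was 1 library, so no p-value was computed. Genes with at least 20 UMIs in both groups together were compared, and a difference of 2-fold was counted. Alternative scaling used TMM factors (edgeR 4.0.16). Detection was compared after thinning cells to 1000 UMIs. The ratio code was tested on simulated data. Python 3.11.15, numpy 2.4.6, pandas 2.3.3 and scipy 1.17.1 were used. Sequences came from RefSeq tables of GRCm38.p6, strands and exons from GENCODE M21.

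Named genes were the 9 members, genes of fixed patterning lists with at least 20 brain UMIs, and for each member with at least 50 brain UMIs the 3 genes of highest correlation across clusters among those with at least 100 UMIs. Genes of the cells that held a member, and the genes named as leading a cluster, fall outside that rule. The members and lists were chosen with earlier results of these data known. A few other genes are not reported here.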

Additional observations from a re-analysis of the deposited data

How the results depend on the processing

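Each setting changed 1 choice. Of the counts of members past 2-fold and of pairs, 60 values stayed within 1.5 times their main count and 14 did not. With cells gated on marker UMIs, the count went from 8 to 3 for aNSC-like over qNSC-like, from 1 to 3 for cycling over aNSC-like, from 3 to 5 for NB-like over aNSC-like and from 5 to 2 for astrocyte-like over qNSC-like. The cycling count was 0 with no upper limit on genes per cell, 0 with called doublets removed, 0 at resolution 1.2, 0 at a minimum of 50 UMIs per gene, 2 with no minimum and 5 at 1.5-fold. The minimum of 50 UMIs, which leaves fewer genes to compare, gave 2 for astrocyte-like over qNSC-like and 5 for OPC-like over qNSC-like. Pairs detected together numbered 3 at 2 UMIs per gene and 2 after thinning to 2000 UMIs, against 6. Under the marker gate, ratios turned from below to above 1 for Nkx2-1 (3.89) and Six3 (1.19) in aNSC-like over qNSC-like cells, and for Nkx2-1 (4.17) and Six3 (1.18) in ependymal-like over qNSC-like cells. Without cluster 15, a setting added after seeing the data, Emx1 in NB-like over aNSC-like cells turned to 0.0877. The cause was not tested. Among the ratios, levels, shares and closest genes of single members, 963 values stayed within the counting interval of the main value or kept all 3 closest genes, 112 moved and 5 reversed. With under 10% mitochondrial counts and at resolution 0.4 no cluster took the aNSC name, so its comparisons gave no value there. No paired analysis was possible because the labels give no replicate numbers and each tissue is 1 library.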
